A study of Mus musculus with 6 samples.

Results

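The smooth muscle contractile genes are 10 genes that encode the actin and myosin of the smooth muscle filament and the proteins bound to it. They were followed on 6 Affymetrix mouse arrays of C2C12 cells, a mouse myoblast line that forms skeletal myotubes when serum is lowered. Probe sets were taken where the platform annotation names 1 of the 10 genes alone, and every such probe set was kept, which gave 17 of the 45033 probe sets analysed. Acta2 had 3 probe sets, Myh11 had 2, Cald1 had 5 and the other 7 genes had 1 each. The labels give 3 arrays of C2C12 cells transfected with an shRNA against PRDM2, a histone H3 lysine 9 methyltransferase, and 3 arrays of C2C12 cells transfected with a control shRNA against GFP. All 6 samples are total RNA taken after 28 hours in 2% horse serum, with no other treatment named, and each group has replicates numbered 1 to 3 that the labels call biological. Nothing states that they came from separate cultures or transfections, so p-values measure only the spread between these samples. The comparison asks how expression in differentiating cells differs when PRDM2 is targeted.

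Smooth muscle contracts by the sliding of actin filaments, built from its own alpha and gamma actins, over a smooth muscle myosin that is switched on by phosphorylation of its regulatory light chain. Calponin, caldesmon, transgelin and smoothelin bind these filaments, and leiomodin starts new ones. Most of these genes are driven by serum response factor (SRF), which binds the CArG box in their promoters together with coactivators of the myocardin family. Several of them are also expressed for a time in skeletal myoblasts and in fibroblasts that take on a contractile form.

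The messenger RNA of Prdm2, the target, was no lower where the labels give PRDM2 shRNA. Its brightest probe set averaged 6.34 log2 units on those arrays and 6.18 on the arrays labelled GFP shRNA, a log2 fold change of 0.15 (SE 0.19, n = 3 per group, adjusted p = 1 with limma), and its other probe sets gave 0.07 (SE 0.18) and 0.12 (SE 0.09). The brightest gave 0.27 (SE 0.20), and the others 0.24 (SE 0.14) and 0.10 (SE 0.11), without GFP replicate 2. Every direction below therefore rests on the labels alone. GFP replicate 2 stood apart from the other GFP arrays. Over the 11259 brightest probe sets the median absolute deviation of its log2 difference was 0.08 from PRDM2 replicate 2, the smallest of the 15 pairs of arrays, but 0.38 from GFP replicate 1 and 0.37 from GFP replicate 3. Counts and calls are given with and without it, and fold changes of single genes without it where they moved by over 1.5 times.

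Promoters are shown because the CArG box is the best known element that these genes share. The RefSeq promoter table (GRCm38.p6) matched 8 promoters of 7 of the 10 genes, all but Actg2, Tagln and Myh11. The 250 bases before the transcription start given in that table are printed 5′ to 3′ on the gene's strand for the 3 genes with a CArG match and for Cnn1, which had none in this window. They lie at chr19:34255374-34255623 for Acta2 (minus strand), chr2:156775214-156775463 for Myl9 (plus strand), chr10:79988350-79988599 for Cnn2 (plus strand) and chr9:22099003-22099252 for Cnn1 (plus strand). Capitals mark each CArG box, or CArG box with 1 C or G in its A and T core.
Acta2: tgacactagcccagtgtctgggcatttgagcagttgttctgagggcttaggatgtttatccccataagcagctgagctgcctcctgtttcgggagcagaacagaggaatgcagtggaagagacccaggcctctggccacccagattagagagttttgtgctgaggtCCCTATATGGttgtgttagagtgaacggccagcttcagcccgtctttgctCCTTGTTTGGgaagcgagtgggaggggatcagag
Myl9: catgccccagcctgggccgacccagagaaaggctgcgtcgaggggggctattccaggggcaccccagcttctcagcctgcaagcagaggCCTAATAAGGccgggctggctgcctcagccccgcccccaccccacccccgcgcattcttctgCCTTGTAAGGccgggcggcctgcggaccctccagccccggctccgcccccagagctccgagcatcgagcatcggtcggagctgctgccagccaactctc
Cnn2: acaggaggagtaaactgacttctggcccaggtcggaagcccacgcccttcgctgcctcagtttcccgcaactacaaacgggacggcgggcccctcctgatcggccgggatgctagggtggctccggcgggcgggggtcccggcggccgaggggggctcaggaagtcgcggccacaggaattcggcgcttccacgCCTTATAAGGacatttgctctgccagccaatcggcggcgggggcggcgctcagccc
Cnn1: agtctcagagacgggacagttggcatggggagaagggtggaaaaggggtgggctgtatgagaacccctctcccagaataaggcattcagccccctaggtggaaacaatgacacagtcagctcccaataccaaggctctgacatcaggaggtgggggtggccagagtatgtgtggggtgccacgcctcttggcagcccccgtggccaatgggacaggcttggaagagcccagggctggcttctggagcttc
Cnn2 held 1 CArG box, at -56 to -47 from the start, and Myl9 held 1 at -161 to -152 with a form carrying 1 C or G at -99 to -90. Acta2 held 2 of the forms with 1 C or G, at -84 to -75 and at -34 to -25. A full CArG box was found in 2 of the 8 promoters and in 1.47% of the 32851 promoters in the table, and the form with 1 C or G in 2 of the 8 and in 7.24% of all. The MCAT element (CATTCC on either strand), bound by TEAD factors, was in 4 of the 8, those of Acta2, Smtn, Lmod1 and 1 of the promoters of Cald1, against 12.6% of all promoters. E-boxes (CANNTG, on either strand), bound by myogenic factors, were in 6 of the 8 and in 66.2% of all. These are matches of letters and not measured sites.

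With all 6 arrays, Actg2, Tagln and Cnn1 had the largest log2 fold changes of the 10 genes (brightest probe set of each), at 1.30, 1.28 and 0.91 towards the PRDM2 arrays, but none of the 17 probe sets passed the threshold of 0.05 on the adjusted p (limma, Benjamini-Hochberg over all probe sets), and each had an adjusted p of 1. No probe set of the 45033 passed, 0% in either direction. At an unadjusted p under 0.05 there were 1326 probe sets without a block and 3531 once the fit was blocked by replicate number, where 2251.65 would be expected by chance. Of the 17, 16 lay on the higher side, against 50% of all probe sets, with a median log2 fold change of 0.26 over the 17 and -2.9e-05 over all. Without GFP replicate 2, 15 of the 17 lay on the higher side, against 49.1% of all probe sets, with a median of 0.32 over the 17 and -0.0032 over all. At an unadjusted p under 0.05 (limma), all 6 arrays gave 3 of the 17 higher, those of Actg2, Tagln and Cnn1, where the percentage over all probe sets was 1.13%, and 0 lower, against 1.82%. Without GFP replicate 2 they gave 6 of the 17 higher, against 5.09% of all, and 0 lower, against 5.16%. With all 6 arrays and the replicate number as a block the adjusted counts were 0 and 0, 0% of all probe sets. In that fit 9 of the 17 were higher at an unadjusted p under 0.05, against 3.78% of all, and 0 were lower, against 4.06%. In such bulk RNA, more cells of a type and more RNA per cell cannot be told apart.

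**Figure D1:**
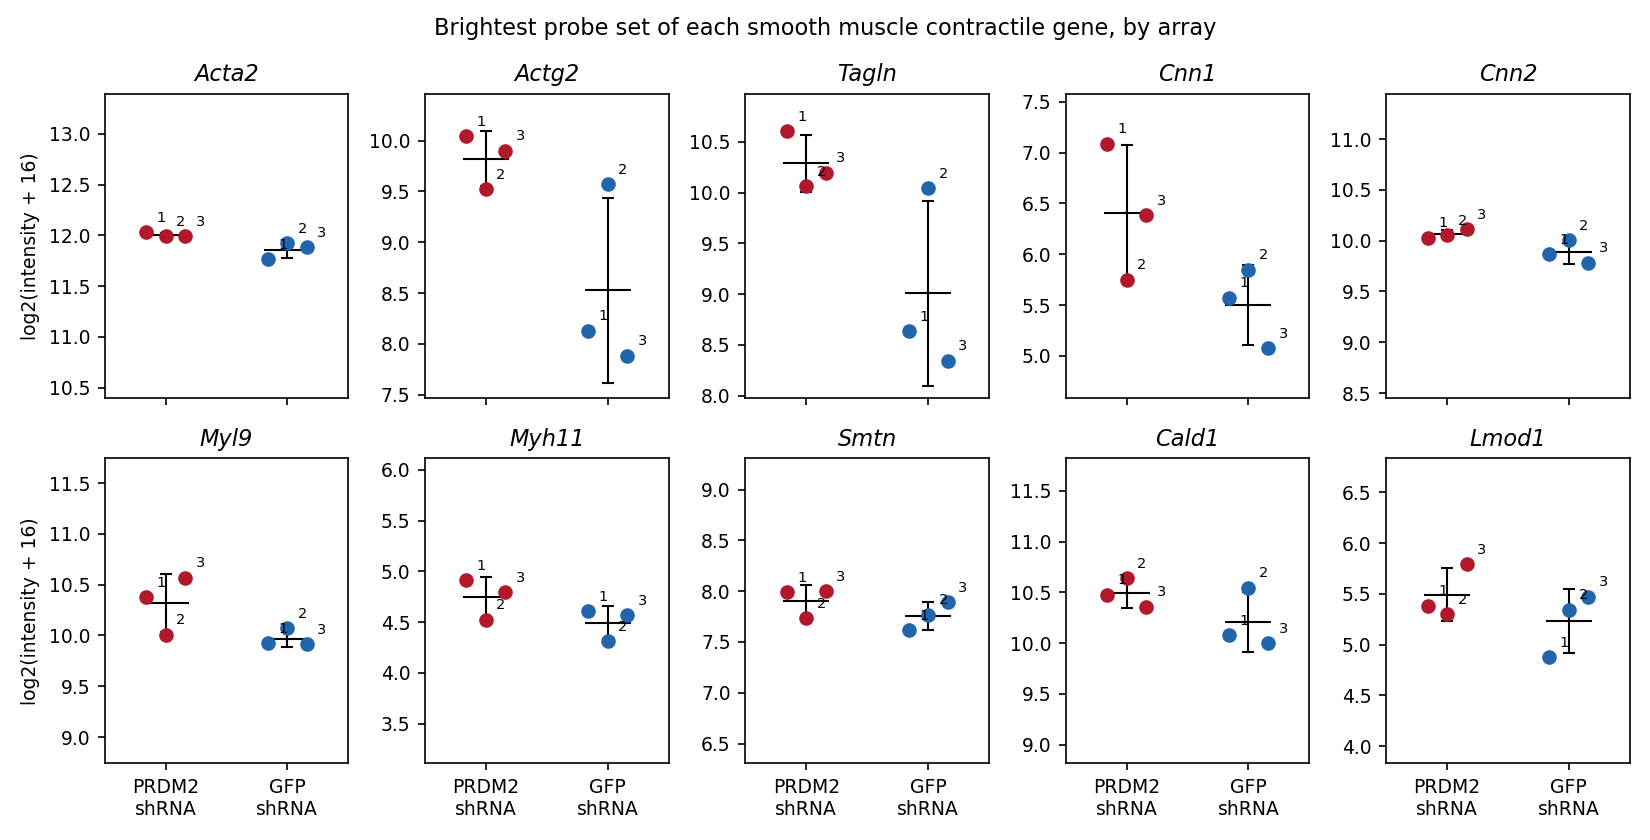
Log2(intensity + 16) after quantile normalization of the brightest probe set of each gene on the 3 PRDM2 shRNA arrays (red, left) and the 3 GFP shRNA arrays (blue, right). Digits are replicate numbers, bars are the mean and SD, and every panel spans 3 log2 units. GFP replicate 2 lies at 9.57 for Actg2 and 10.04 for Tagln, near the PRDM2 arrays, while GFP replicates 1 and 3 lie between 7.88 and 8.63.

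Actg2 and Acta2 encode the actins of the smooth muscle filament. Actg2, the gamma actin of enteric smooth muscle, had deposited intensities of 1107, 715 and 859 on PRDM2 arrays 1, 2 and 3, against 274, 756 and 211 on GFP arrays 1, 2 and 3. All 3 PRDM2 arrays and GFP array 2 were high, and GFP arrays 1 and 3 were low, so the groups overlapped. The mean intensity was 894 ± 198 on the PRDM2 arrays and 414 ± 298 on the GFP arrays (SD, n = 3 each), which gave a log2 fold change of 1.30 (SE 0.43) with a 95% interval of 0.27 to 2.32. The GFP arrays spread over 1.69 log2 units, more than the difference between the groups. Once GFP replicate 2 was left out, Actg2 rose by 1.82 (SE 0.17, adjusted p = 0.022 with limma).

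Acta2, the alpha actin of vascular smooth muscle and of myofibroblasts, was bright, and the PRDM2 and GFP values of its brightest probe set lay close together. The mean level of that set was at percentile 99.98 of all probe sets, and whether fold changes are compressed so near the top of the scale was not tested. Its brightest probe set read 4246, 3815 and 3910.2 on PRDM2 arrays 1, 2 and 3, against 3594, 3618 and 3830.1 on GFP arrays 1, 2 and 3. After quantile normalization the PRDM2 arrays all lay above the GFP arrays, whereas the deposited values overlapped. It gave 0.15 as its log2 fold change (SE 0.07), with a 95% interval from -0.03 to 0.32. The name of this probe set ends in _s_at, which Affymetrix gives to sets whose probes match more than 1 transcript. The sarcomeric actins Acta1 and Actc1, close in sequence to Acta2, stood at 0.04 (SE 0.08) and 0.01 (SE 0.08) on the log2 fold change scale (0.02 and 0.02 without GFP replicate 2), and whether the set also reads them was not tested. The other 2 probe sets of Acta2 were dim. One read 25.8, 26.5 and 23.5 on PRDM2 arrays 1, 2 and 3, against 11.8, 26.4 and 14.5 on GFP arrays 1, 2 and 3, with GFP arrays 1 and 3 low, as in Actg2, and GFP array 2 among the PRDM2 values. Its log2 fold change was 0.33 (SE 0.15), and 0.51 (SE 0.08, adjusted p = 0.079 with limma) without GFP replicate 2. The other gave 0.17 (SE 0.12).

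Neither myosin gene passed the threshold. Myl9, the regulatory light chain whose phosphorylation starts contraction, read 1395, 1019.7 and 1367 on PRDM2 arrays 1, 2 and 3, against 1004, 1075 and 920.0 on GFP arrays 1, 2 and 3. PRDM2 arrays 1 and 3 were high, and PRDM2 array 2 lay among the GFP arrays. Its log2 fold change was 0.35 (SE 0.15, 95% interval -0.0022 to 0.70). Here the PRDM2 arrays were the more spread out, over 0.56 log2 units against 0.15 in the GFP arrays. Myh11, the smooth muscle myosin heavy chain and the marker most tied to mature smooth muscle, was near the floor of the scale in both groups. Its brighter probe set read 14.3, 6.82 and 11.95 on PRDM2 arrays 1, 2 and 3, against 8.33, 3.66 and 7.92 on GFP arrays 1, 2 and 3, all under the offset of 16 added before taking logs. The fold changes of its 2 probe sets, 0.25 (SE 0.13) and 0.07 (SE 0.08), are compressed by that offset, and the first was 0.16 (SE 0.13) without GFP replicate 2.

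Among the actin-binding proteins, Tagln and Cnn1 had the large fold changes. Tagln, or SM22 alpha, which bundles actin filaments and is an early marker of smooth muscle, read 1618, 1050.5 and 1047 on PRDM2 arrays 1, 2 and 3, against 399, 1057 and 294 on GFP arrays 1, 2 and 3. As in Actg2, GFP array 2 stood with the PRDM2 arrays and GFP arrays 1 and 3 were low. The groups did not overlap after quantile normalization, by 0.02 log2 units, but overlapped in the deposited values. The mean intensity was 1239 ± 329 on the PRDM2 arrays and 583 ± 414 on the GFP arrays (SD, n = 3 each), with a log2 fold change of 1.28 (SE 0.43, 95% interval 0.25 to 2.31). With GFP replicate 2 left out, Tagln rose by 1.80 (SE 0.18, adjusted p = 0.025 with limma).

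Cnn1, the smooth muscle calponin, which binds actin and slows the myosin motor, read 126, 38.9 and 62.8 on PRDM2 arrays 1, 2 and 3, against 31.2, 44.1 and 18.1 on GFP arrays 1, 2 and 3. PRDM2 arrays 1 and 3 were above all GFP arrays, and PRDM2 array 2 lay under GFP array 2. Its fold change was 0.91 on the log2 scale (SE 0.35, 95% interval 0.07 to 1.75), and 1.08 (SE 0.38, adjusted p = 0.39 with limma) without GFP replicate 2. Its paralog Cnn2, a calponin also made in non-muscle cells, was bright, at 1087, 1048 and 986 on PRDM2 arrays 1, 2 and 3, against 961, 1039 and 840.1 on GFP arrays 1, 2 and 3. The log2 fold change of Cnn2 was 0.18 (SE 0.08, 95% interval -0.02 to 0.38). The groups of Cnn2 did not overlap after quantile normalization but overlapped in the deposited values.

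Cald1, or caldesmon, which blocks myosin from actin until it is released, was measured by 3 bright probe sets from 1 transcript record, which differed in how far the arrays spread. The brightest, whose name ends in _s_at as in Acta2, read 1489, 1559 and 1185 on PRDM2 arrays 1, 2 and 3, against 1129, 1473 and 964 on GFP arrays 1, 2 and 3. The second read 895, 688 and 425 on the PRDM2 arrays, against 595, 669 and 315 on the GFP arrays. The last read 655, 650.2 and 210.3 on the PRDM2 arrays, against 362, 696 and 146 on the GFP arrays. In all 3 of these probe sets, the array numbered 3 was the lowest of its group. The last spread over 2.04 log2 units within the GFP arrays, and its fold change of 0.42 had an SE of 0.59, while the brightest gave 0.28 (SE 0.16) and the second 0.37 (SE 0.30). Without GFP replicate 2 the last gave 0.91 (SE 0.52), the brightest 0.45 (SE 0.11) and the second 0.56 (SE 0.30). The 2 dimmer probe sets of Cald1, from another transcript record, gave 0.02 (SE 0.26) and -0.11 (SE 0.08), the last the only 1 of the 17 on the lower side with all 6 arrays. Both lay on the lower side without GFP replicate 2, at -0.13 (SE 0.27) and -0.09 (SE 0.09). Which caldesmon isoforms each probe set reads was not analysed here.

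Smtn, or smoothelin, a cytoskeletal protein of contractile smooth muscle, read 253, 196 and 222 on PRDM2 arrays 1, 2 and 3, against 187, 208 and 212 on GFP arrays 1, 2 and 3. Its log2 fold change was 0.15 (SE 0.11, 95% interval -0.11 to 0.41). Lmod1, the smooth muscle leiomodin, which nucleates actin filaments, was dim, at 26.1, 23.5 and 36.8 on PRDM2 arrays 1, 2 and 3, against 13.1, 25.3 and 28.2 on GFP arrays 1, 2 and 3. Its log2 fold change was 0.26 (SE 0.19, 95% interval -0.20 to 0.72). The groups overlapped in both genes, with the lowest value in GFP array 1.

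**Figure D2:**
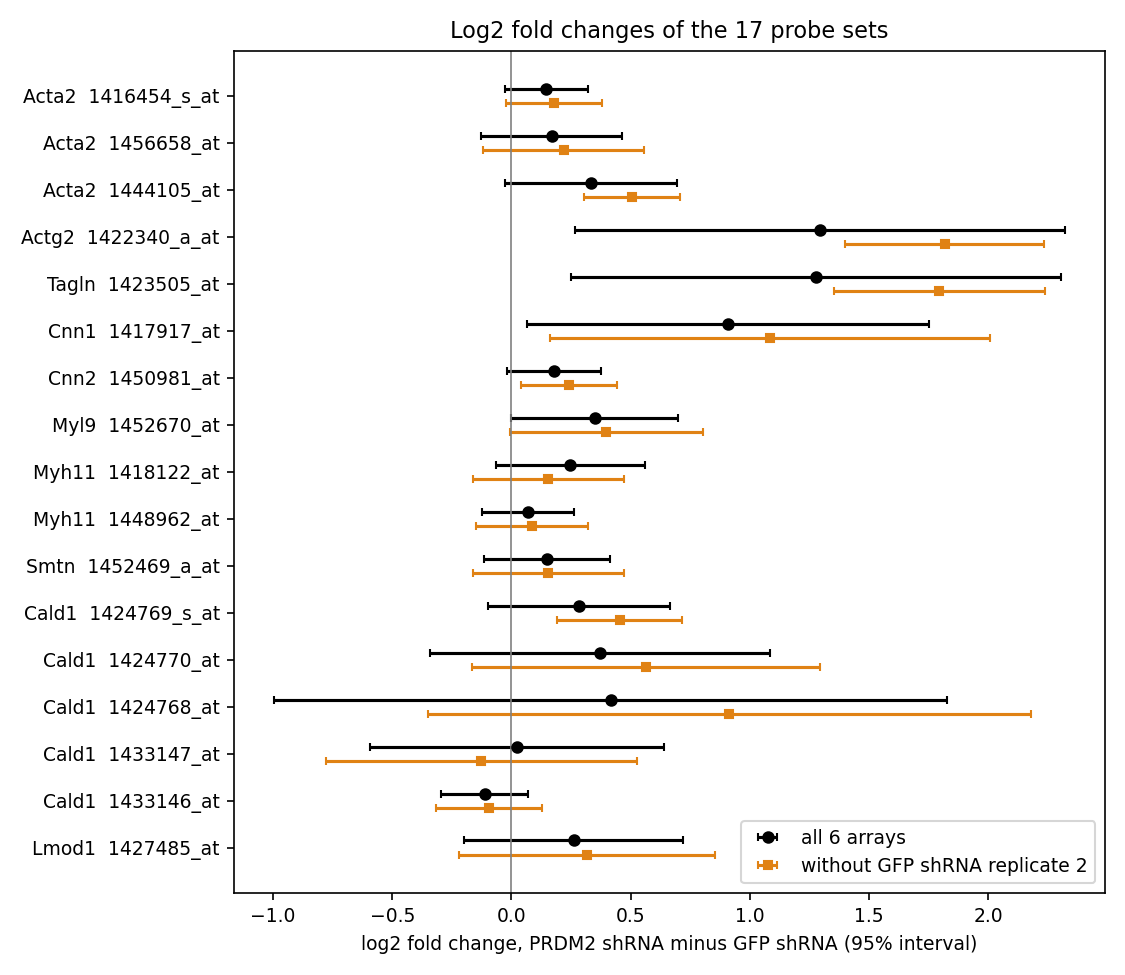
Log2 fold change (PRDM2 shRNA minus GFP shRNA) with 95% interval for each of the 17 probe sets, with all 6 arrays (black circles) and without GFP shRNA replicate 2 (orange squares). The intervals of Actg2, Tagln and Cnn1 lie above 0 in both, though none passed the adjusted threshold with all 6 arrays, and Actg2 and Tagln move to 1.82 and 1.80 without that array.

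The groups did not overlap in 3 of the 17 probe sets, the brightest of Acta2, Tagln and Cnn2, all higher on the PRDM2 arrays, against 3.18% of all probe sets. None was lower, against 4.06% of all. This count was 0 with the deposited scaling and 1 with median centring. Without GFP replicate 2, 2 of the 17 passed the threshold, Actg2 and Tagln, both higher, against 0.266% of all probe sets, and 0 were lower, against 0.262%. In that setting 8 of the 17 did not overlap, all higher, against 12.9% of all probe sets, and 0 were lower, against 13.5%. Leaving out GFP replicate 2, or both arrays numbered 2, was chosen with results known, so p-values in those settings are too small.

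The arrays with the same number showed where the differences lay. Between PRDM2 and GFP arrays numbered 1, Actg2 differed by 1.91 log2 units, Tagln by 1.97 and Cnn1 by 1.52. Between those numbered 3, Actg2 differed by 2.02, Tagln by 1.85 and Cnn1 by 1.31. Between those numbered 2, Actg2 differed by -0.05, Tagln by 0.02 and Cnn1 by -0.10. Over the 17 probe sets the median difference was 0.45 for number 1, with 16 higher, and 0.33 for number 3, with 15 higher, but -0.03 for number 2, with 8 higher. Over all probe sets 48.9% were higher for number 1, 49.3% for number 2 and 49.9% for number 3. The median absolute difference over the 17 for number 2, 0.07, was close to the 0.06 of all probe sets brighter than the median. For number 1 it was 0.45 over the 17 and 0.19 over those brighter sets, and for number 3 it was 0.33 and 0.13. Of the 17, 3 lay below the median probe set. GFP replicate 2 lay nearer to the mean of the PRDM2 arrays than to that of GFP replicates 1 and 3 in 12 of the 17 probe sets, against 65.6% of all.

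**Figure D3:**
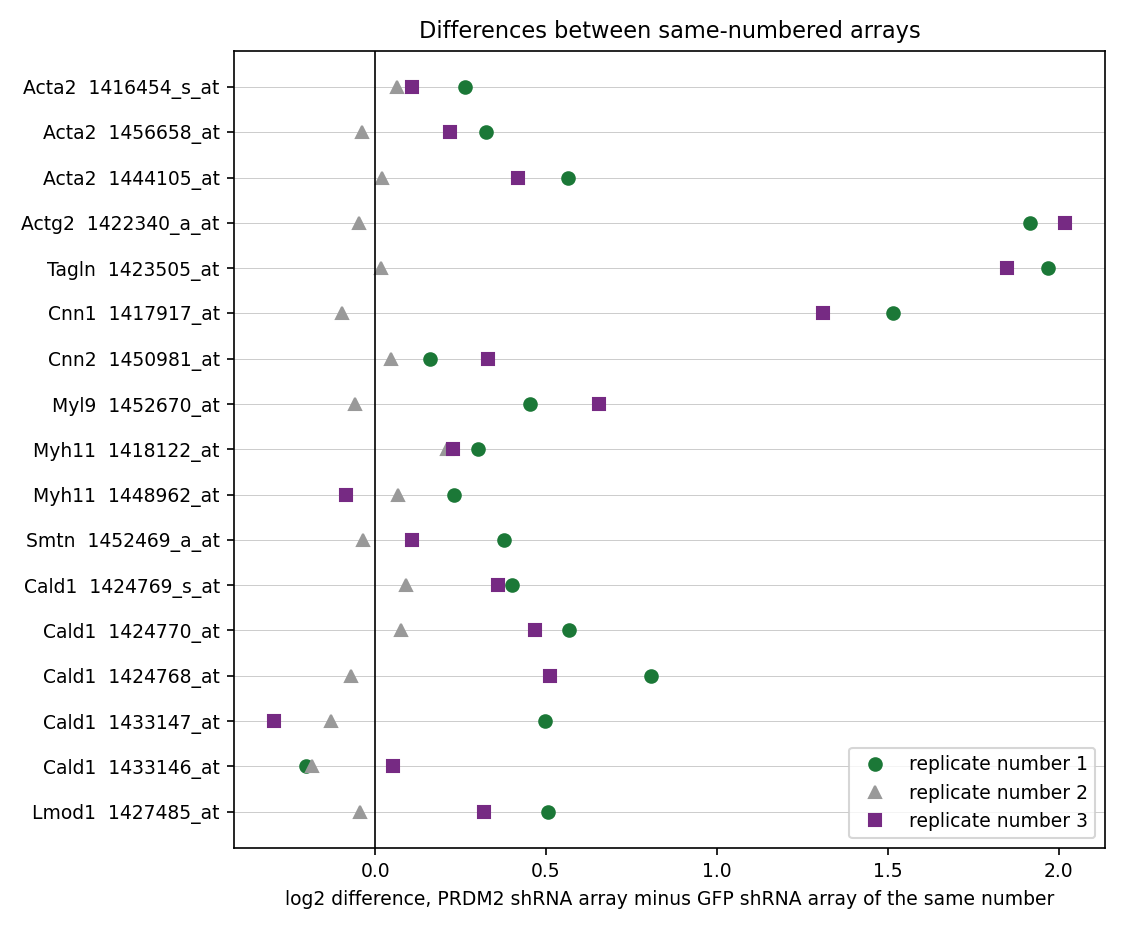
Log2 difference between the PRDM2 shRNA array and the GFP shRNA array of the same replicate number, for each of the 17 probe sets. Numbers 1 and 3 give differences of 1.31 to 2.02 for Actg2, Tagln and Cnn1, and number 2 (grey triangles) lies between -0.10 and 0.02 for them.

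With both arrays numbered 2 left out and the replicate number as a block, Actg2 rose by 1.97 (SE 0.09, adjusted p = 0.0030 with limma). Tagln rose by 1.91 (SE 0.10, adjusted p = 0.0031 with limma) and Cnn1 by 1.41 (SE 0.10, adjusted p = 0.0078 with limma). These were 3 of the 17 past the threshold, all higher, against 0.899% of all probe sets, and 0 were lower, against 0.693%, from 2 arrays per group. So few arrays leave little spread to measure per gene, and these SEs rest mostly on variance shared over all probe sets. Without the block the same 4 arrays gave 1 call, Actg2, higher, against 0.0555% of all, and 0 lower, against 0.0711%. The groups of 2 did not overlap in 10 of the 17, all higher, against 19% of all probe sets, and 0 were lower, against 20.1%.

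The genes most like Actg2 and Tagln over the 6 arrays were sought among the brightest probe sets of 896 other genes with a range of at least 1 log2 unit. Pearson's r with Actg2 was 0.998 for Frmpd1, 0.994 for Ctrb1, a chymotrypsinogen, 0.988 for Snx7, a sorting nexin, 0.986 for Shisa2 and 0.982 for Col4a1, a basement membrane collagen. With Tagln it was 0.996 for Snx7, 0.994 for Frmpd1, 0.990 for Pak3, a kinase downstream of Rac, 0.986 for Ctrb1 and 0.985 for Egr1, an immediate early factor. Actg2 and Tagln themselves correlated at 0.995. These values describe 6 arrays in which GFP arrays 1 and 3 are low and the other 4 high. Frmpd1 shows the pattern, with 196, 145 and 157 on PRDM2 arrays 1, 2 and 3, against 84.1, 148 and 72.9 on GFP arrays 1, 2 and 3.

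**Figure D4:**
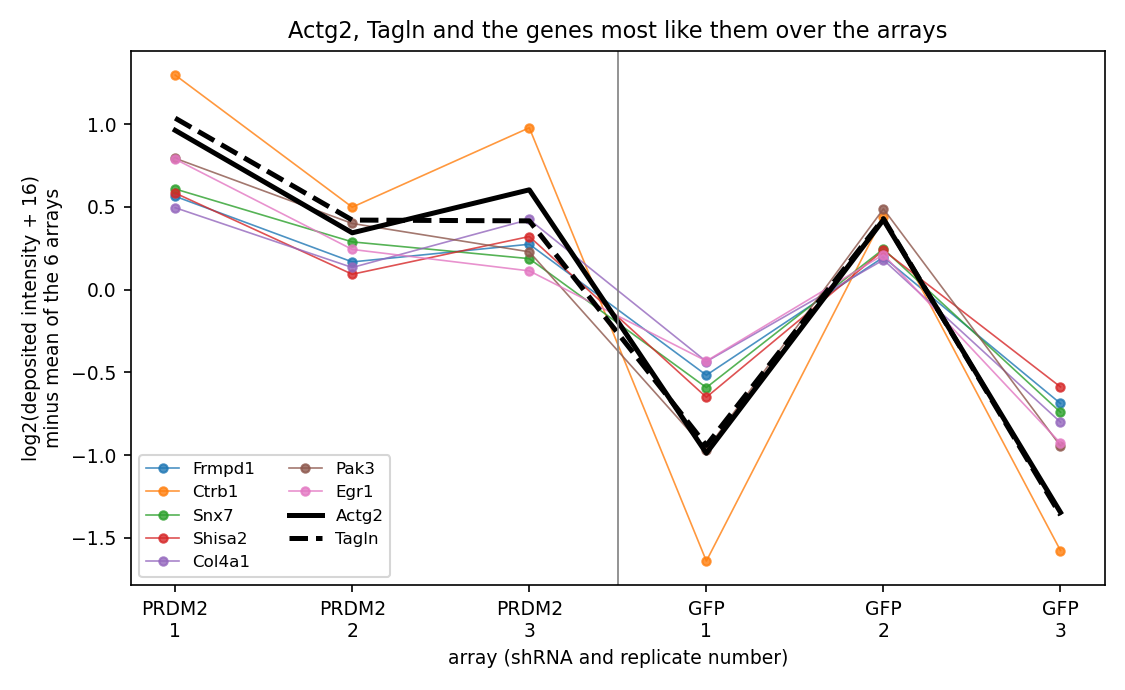
Log2(deposited intensity + 16) minus its mean over the 6 arrays for Actg2 and Tagln (black lines) and the genes most like them, by array. All have GFP arrays 1 and 3 below their mean and the other 4 arrays above it.

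Upstream of these genes, 23 regulators of smooth muscle transcription were measured. None of the regulators passed the threshold with all 6 arrays, nor without GFP replicate 2, where 0.863% of all genes passed. Their median log2 fold change was 0.03, against -0.0033 over the brightest probe sets of all 18192 genes. Srf read 191, 174 and 173 on PRDM2 arrays 1, 2 and 3, against 216, 180.0 and 181 on GFP arrays 1, 2 and 3. Myocd, the coactivator restricted to cardiac and smooth muscle, read at most 6.21 on any array. Its relatives Mrtfa and Mrtfb, which carry signals from actin to SRF, lay at -0.26 (SE 0.17) and -0.34 (SE 0.12) in log2 fold change, the opposite side to Actg2 and Tagln, with Mrtfa at -0.46 (SE 0.09) without GFP replicate 2. The largest fold changes in the list were those of Klf4, a repressor of smooth muscle genes, at 0.67 (SE 0.50), and of the growth factors Tgfb3 and Tgfb1, inducers of these genes, at 0.52 (SE 0.27) and 0.50 (SE 0.35). Without GFP replicate 2, Klf4 stood at 1.24 (SE 0.25), Tgfb3 at 0.85 (SE 0.12) and Tgfb1 at 0.84 (SE 0.26), none past the threshold. Tgfb3 read 526, 510 and 384 on PRDM2 arrays 1, 2 and 3, against 249, 536 and 262 on GFP arrays 1, 2 and 3, again with GFP array 2 high.

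Other genes regulated by SRF had 0 of 23 past the threshold with all 6 arrays and a median of 0.10, which was 0.19 without GFP replicate 2. Beside cytoskeletal genes, this list holds secreted proteins, an integrin and transcription factors. The largest fold changes were those of Ccn2, a matrix-associated growth factor, at 1.32 (SE 0.61), of Egr1 at 0.79 (SE 0.27) and of Filip1l at -0.77 (SE 0.27). Leaving out GFP replicate 2, Thbs1, or thrombospondin, rose by 1.19 (SE 0.12, adjusted p = 0.025 with limma) and Filip1l fell by 1.09 (SE 0.12, adjusted p = 0.035 with limma). These were 1 higher and 1 lower of the 23, where 0.863% of all genes passed in that setting.

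Paralogs of the 10 genes in striated or non-muscle cells had a median of 0.02 (0.01 without GFP replicate 2), with 0 of 22 past the threshold with or without GFP replicate 2. Tagln3, a neuronal relative of Tagln, stood at 0.73 (SE 0.38), Tmod1, a capping protein of actin filaments, at -0.60 (SE 0.61) and the non-muscle myosin Myh10 at -0.46 (SE 0.17). Tmod1 stood at -1.25 (SE 0.40) without GFP replicate 2. Tagln2 and Cnn3, the relatives of Tagln and Cnn1 in non-muscle cells, gave 0.05 (SE 0.17) and 0.06 (SE 0.08), with Tagln2 at 0.14 (SE 0.18) without GFP replicate 2. The actins Actb and Actg1 gave 0.01 (SE 0.11) and -0.01 (SE 0.07), with Actg1 at -0.03 (SE 0.09) without GFP replicate 2.

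Smooth muscle, pericyte and myofibroblast markers outside the 10 genes had 0 of 21 past the threshold with all 6 arrays. Of these, 8 lay on the higher side (38.1%, against 48.8% of all genes), with a median of -0.06, so more of the list lay on the lower side. The 3 of largest absolute fold change among those bright enough to be named were all higher. The collagen gene Col1a1 stood at 1.83 (SE 0.79), the proteoglycan gene Cspg4 at 0.85 (SE 0.36) and the receptor gene Pdgfrb at 0.54 (SE 0.27), which was 0.85 (SE 0.14) without GFP replicate 2. Col1a1 read 1054, 844 and 487 on PRDM2 arrays 1, 2 and 3, against 99.9, 849 and 90.8 on GFP arrays 1, 2 and 3, with GFP arrays 1 and 3 low, as in Actg2. Col1a1 rose by 2.80 without GFP replicate 2 (SE 0.25, adjusted p = 0.019 with limma), and in the same setting the pericyte marker Rgs5 fell by 1.32 (SE 0.09, adjusted p = 0.011 with limma). These were 1 higher and 1 lower of the 21, where 0.863% of all genes passed. Rgs5 was dim, at 0.91, 2.61 and 2.47 on PRDM2 arrays 1, 2 and 3, against 30.0, 0.91 and 27.4 on GFP arrays 1, 2 and 3. With all 6 arrays its groups overlapped, at -0.85 (SE 0.37). The part of these markers in the values of Actg2 and Tagln was not tested.

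The arrays carried the markers of differentiating skeletal myoblasts. The 11 skeletal myogenic markers summed to 17219 to 18648 units on the PRDM2 arrays and 16097 to 17739 on the GFP arrays, with 0 past the threshold. Among them Myf5 stood at -1.32 (SE 0.46), Mef2c at 1.05 (SE 0.52) and Ckm at 0.22 (SE 0.23), or 0.35 (SE 0.24) without GFP replicate 2. Without GFP replicate 2, Myf5 fell by 1.90 (SE 0.11, adjusted p = 0.0077 with limma) and Mef2c rose by 1.68 (SE 0.22, adjusted p = 0.046 with limma). These were 1 lower and 1 higher of the 11, where 0.863% of all genes passed in that setting. The 7 markers of mature smooth muscle outside the 10 genes summed to 2068 to 2280.1 units on the PRDM2 arrays and 2199 to 2550.2 on the GFP arrays, of which Des, shared with skeletal muscle, made up the largest part. Of these 7 markers, 1 lay on the higher side (14.3%, against 48.8% of all genes). Their median log2 fold change was -0.06, and -0.14 without GFP replicate 2. Npnt, an extracellular matrix protein, was the 1 on the higher side and had the largest log2 fold change. It stood at 0.39 (SE 0.39), and at 0.73 (SE 0.34) without GFP replicate 2. Kcnmb1, a potassium channel subunit of smooth muscle, read at most 9.71 on any array. Markers of 3 other cell types were also measured. The 7 endothelial markers summed to 33.3 to 58.9 units on the PRDM2 arrays and 26.2 to 72.4 on the GFP arrays, and 6 of them had means below the median probe set. Pecam1 read at most 1.78, while Emcn, the brightest, reached 37.0 on the PRDM2 arrays and 52.6 on the GFP arrays, at -0.19 (SE 0.39) in log2 fold change and -0.61 (SE 0.26) without GFP replicate 2. The 7 macrophage or leukocyte markers summed to 106 to 211 units on the PRDM2 arrays and 124 to 199 on the GFP arrays, and 4 of them had means below the median probe set. Cd68 read at most 3.51, while Csf1r read 34.5, 87.5 and 134 on PRDM2 arrays 1, 2 and 3, against 77.6, 66.9 and 121 on GFP arrays 1, 2 and 3. The largest log2 fold change was that of Cd14, at -0.44 (SE 0.18). The 5 adipocyte markers measured summed to 52.9 to 88.6 units on the PRDM2 arrays and 61.1 to 127 on the GFP arrays, and 3 of them had means below the median probe set. Adipoq read at most 1.08, while Lpl read 22.7, 34.5 and 52.5 on PRDM2 arrays 1, 2 and 3, against 88.5, 38.5 and 53.5 on GFP arrays 1, 2 and 3, at -0.49 (SE 0.30) in log2 fold change. None of these 19 genes passed the threshold with all 6 arrays, nor without GFP replicate 2, where 0.863% of all genes passed. The part of these 19 genes in the values of the 10 genes was not tested.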

How the data were processed

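Total RNA (8 ug per sample) was labelled and hybridised to 1 array per sample, per the labels' protocols. The table deposited by the authors holds 1 linear intensity per probe set and array. GCOS and PLIER are named in the submitters' processing notes, and how the authors scaled the arrays to each other is not stated there. Of 45101 probe sets, 64 control sets and 4 sets of Gngt1, whose value in GFP replicate 2 was the gene's Entrez number, were left out. Probe sets were named by the platform annotation (34941 with 1 gene, 932 with several, 9160 unnamed here), and 34737 matched a GRCm38.p6 gene table by Entrez number, changing 0 symbols. The files name no build, and coordinates are given only for promoters read from the RefSeq table.

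Values were taken as log2(intensity + 16), which understates the change of dim probe sets, and quantile normalized. The median probe set stood at 4.76 log2 units, and 3 of the 17 lay below it. No filter was applied. All probe sets were fitted together in R 4.3.3 by lmFit and eBayes of limma 3.58.1, without a block. Tests were two-sided with Benjamini-Hochberg adjustment over 45033 probe sets, and the fit was tested on simulated data. Fold changes are PRDM2 shRNA minus GFP shRNA, and SEs are limma's. The precision is limited by the 3 arrays per group.

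Over 18192 genes, arrays sharing a number deviated together from their group means (correlations of 0.34, 0.59 and 0.66), so the number was read as a pairing, taken from the data and not from the labels. The 10 genes, the lists and the settings were chosen with earlier results of these data known. The 10 genes were always named. From each list of genes of one function, and from the skeletal markers, the text names the 3 genes of largest absolute fold change among brightest probe sets with a mean of at least 5 log2 units, and any past the threshold. The levels of Srf, Myocd, Mrtfa, Mrtfb, Acta1, Actc1, Actb, Actg1, Tagln2, Cnn3, Kcnmb1, Npnt, Pecam1, Emcn, Cd68, Csf1r, Cd14, Adipoq and Lpl were added after their values were seen. Lists are described by counts and medians, with no set test. A further list of genes is not reported here.

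Alternatives were other scalings, offsets of 1 and 64, leaving out dim probe sets, 1 probe set or the mean per gene, trend and robust variance, array weights, the replicate block, and leaving out arrays.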

Additional observations from a re-analysis of the deposited data

How the results depend on the processing

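The sign of the log2 fold change of the brightest probe set was positive for each of the 10 genes in every alternative run, which for Myh11 leaves out the setting without dim probe sets. With 6 arrays, no scaling, offset, filter, unit of the fit, variance model, array weight or replicate block gave a call. Leaving out 1 array at a time gave 0 to 120 higher and 0 to 118 lower probe sets, and 0 to 2 higher member probe sets, with calls only without GFP replicate 2. Leaving out both arrays numbered 2 gave 25 higher and 32 lower, with 1 member higher, and with the replicate block added 405 higher and 312 lower, with 3 members higher. Member probe sets whose groups did not overlap numbered 3 in the main setting (all higher, against 3.18% of all probe sets). They numbered 0 with the deposited scaling and 1 with median centring. Without both arrays numbered 2 they numbered 10, all higher, against 19% of all probe sets. Without GFP replicate 2 they numbered 8 higher, against 12.9% of all probe sets, and 0 lower, against 13.5%. A smaller group overlaps less often over all probe sets as well. For the other single arrays the share over all probe sets was not taken, so their counts are not given. The replicate block changed no call with all 6 arrays.

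The fold change of Actg2 lay between 0.97 (without GFP replicate 3) and 1.97, that of Tagln between 0.95 (without GFP replicate 3) and 1.91, and that of Cnn1 between 0.53 (offset 64) and 1.41. The offset sets the size for dim genes, with Cnn1 at 1.21 and Myh11 at 0.65 for an offset of 1, and Myh11 at 0.08 for an offset of 64. Leaving out 1 array also moved Cnn1 to 0.57 (PRDM2 replicate 1), Myl9 to 0.22 (PRDM2 replicate 3), Lmod1 to 0.11 (PRDM2 replicate 3) and 0.08 (GFP replicate 1), Smtn to 0.08 (GFP replicate 1) and 0.24 (PRDM2 replicate 2), Cald1 to 0.45 (GFP replicate 2) and 0.18 (GFP replicate 3), and Myh11 to 0.16 (PRDM2 replicate 1, GFP replicate 2). The causes were not tested. With 3 arrays per group a single gene's exact permutation test could not go below 0.1.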

Other observations

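The brightest probe set of Acta2 spanned only 0.26 log2 units over the arrays. It was compared with the same 896 genes, all with a range of at least 1 log2 unit, so genes that varied as little as Acta2 were not ranked. Among the 896, Acta2 was most like Cacna1s, the calcium channel of skeletal muscle (Pearson's r 0.988 over 6 arrays), and Erbb3, a neuregulin receptor (0.975). Next came Plpp7 (0.968), Rbfox1, a splicing factor of muscle and neurons (0.959), and Ucma (0.957). Cacna1s read 169, 115 and 114 on PRDM2 arrays 1, 2 and 3, against 40.9, 109 and 72.4 on GFP arrays 1, 2 and 3, with GFP array 1 lowest, as for Acta2. The log2 fold changes of these 5 genes lay between 0.48 (Erbb3) and 0.94 (Rbfox1), and none passed the threshold with all 6 arrays or without GFP replicate 2.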
